A study of Mus musculus with 17 samples.

Results

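FOXA2-positive and FOXA2-negative cells of mouse neural tube organoids were compared after retinoic acid (RA) alone. The 6 libraries compared, of 17 in the series, were those titled as the RA control with a FOXA2-positive or a FOXA2-negative fraction, 3 of each. All 6 came from R1 mouse embryonic stem cells, an established line, that carry FOXA2-Venus, the label of a yellow fluorescent tag on the transcription factor FOXA2, and the labels give each of them RA for 18 hours. The other 11 libraries came from the same line and genotype after 18 hours of RA, a gap of 6 hours with no agent, and then 8 hours in either BMP4, a growth factor of the bone morphogenetic protein family, or a compound that the labels name only as LDN. They entered the fit to share its estimate of spread, and gave FOXA2-positive against FOXA2-negative comparisons of their own. A single line was used, and the labels name no separate cultures behind libraries of the same group, so the spread that the p-values rest on is that of these samples and may be technical. Since the labels of the RA groups name no later step, RA and the other arms may differ in the time of collection as well as in treatment, and these cannot be told apart.

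FOXA2 is a forkhead factor that opens chromatin at its sites and marks the floor plate, which runs along the ventral midline of the developing spinal cord and brain, as well as the node, the notochord and the definitive endoderm. Floor plate cells make Sonic hedgehog, which binds the receptor PTCH1 and so frees SMO and the GLI factors to act on targets that include Ptch1 itself. Retinoic acid, a derivative of vitamin A, acts through RAR and RXR receptors, gives neural cells a posterior identity by way of the Hox genes, and brings stem cells out of pluripotency.

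The RA libraries held 8923949 to 10623373 counts assigned to genes and 16854 to 18457 genes with at least 1 count. Levels are CPM, read counts scaled to library size by TMM, and are not divided by gene length, so they are compared between libraries and not between genes. On principal components of the 6 libraries the pair numbered 1 stood apart from the pairs numbered 2 and 3 in both fractions, and it had mitochondrial shares of 6.94% and 7.43%, against 4.37% to 4.50%. The part of this in the results was not tested, and counts are given below also without that pair. Same-numbered libraries deviated together, so libraries of the same number are described as pairs. The main fit has no term for these pairs, and every p-value is from it unless another fit is named. A fit with the replicate number as a block is given where it changes a call. Libraries 2 and 3 also deviated together across numbers, so how these 2 are paired rests on their numbers and not on the data. In bulk RNA, fewer cells of a type and less RNA per cell cannot be told apart.

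Genes were tested where they passed a filter on low counts, so the lists below are counted over their tested members. A gene was called where its adjusted p was under 0.05, and called genes are written as higher or lower in FOXA2-positive cells. After RA 212 of 17813 genes tested were called (1.19%), 66 higher (0.371%) and 146 lower (0.82%). With the replicate block the count was 362, with 140 higher and 222 lower, and 206 of the 212 were among them. Without both libraries numbered 1 it was 109, with 37 higher and 72 lower, of which 86 were among the 212. Fitted on the 6 RA libraries alone it was 127, of which 102 were among the 212, and genes named below are not marked for that fit. Left out in turn, FOXA2-negative library 2 gave 105, FOXA2-positive library 2 gave 128 and FOXA2-positive library 3 gave 135. Each of the 212 genes had the FOXA2-positive libraries all above or all below the FOXA2-negative ones, as had 7.25% (above) and 7.99% (below) of the genes tested. Over all genes tested the median log2 fold change was 0, and 49.4% were positive. Of the genes named below whose call held with each single library left out, Cpn1, Hspb1, Laptm5, Pecam1, Prickle1, Tet2 and Zscan4d were not called without both libraries numbered 1 (adjusted p between 0.0531 and 0.104). Values per library are given below in the order of the library numbers 1, 2 and 3, FOXA2-positive first. Each fold change is a log2 difference, FOXA2-positive minus FOXA2-negative, with its standard error (SE).

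The targeted reporter gene checks the labels of the fractions. Foxa2 (chr2:148042877-148046969, minus strand, mm10) had 30.9, 18.4 and 19.8 CPM in FOXA2-positive libraries and 0.418, 0.294 and 0.22 CPM in FOXA2-negative libraries. All 3 FOXA2-positive libraries were far above the others (6.15 ± 0.85, SE, adjusted p = 0.000319), which is what the fractions were taken for and no result of its own. Of 16 members tested Foxa2 alone was called. The median was 0.75, but 0.013 over 21 members with no filter on low counts and 0.31 over 14 with a filter of 5 CPM in 2 libraries. Shh, the gene of the floor plate signal, had 0 counts in all 6 libraries, together with Corin, Olig2 and Ferd3l. Zero counts in a group of 3 libraries allow up to 0.102 and 0.104 CPM in the FOXA2-positive and FOXA2-negative group, taking 3 counts in all as the floor. Such limits cover counting error only. Foxa1, a forkhead paralogue of Foxa2, had 18.4, 11.8 and 2.76 CPM against 4.6, 1.47 and 0 CPM. Its values overlapped between fractions, and it was called with the replicate block (adjusted p = 0.0438; 0.422 without). Slit1, a midline guidance ligand, had 5.64, 6.66 and 3.89 CPM against 1.36, 0.098 and 0 CPM, with no overlap and no call (adjusted p = 0.267). Spon1, which encodes the floor plate protein F-spondin, stayed at or under 1.74 CPM in every library, and the ventral homeobox gene Nkx6-1 had 0.885, 0 and 3.07 CPM in FOXA2-positive libraries and 0 counts in FOXA2-negative ones. The summed level of the list was 198.6 to 238.6 CPM in FOXA2-positive and 154.5 to 224.0 CPM in FOXA2-negative libraries, so the fractions overlapped on it.

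In the Hedgehog list the receptor was the called member, 1 of 18 tested, with a median of 0.33. Ptch1, which binds the ligand and is also its target, had 141, 105 and 65.3 CPM against 49.2, 22.3 and 16 CPM. Within every pair the FOXA2-positive library was the higher one, and the pair numbered 1 was the highest in both fractions (1.83 ± 0.42, adjusted p = 0.0396). The call ended without FOXA2-negative library 2 or 3 or FOXA2-positive library 1 or 2 (adjusted p between 0.111 and 0.19), and with the replicate block it held at adjusted p = 0.00207. Gli1, whose transcription follows the active pathway, had 9.73, 7.13 and 6.44 CPM against 7.11, 3.92 and 3.84 CPM (adjusted p = 0.662), and its fractions overlapped. Smo, the signal transducer, had 41.2, 42.3 and 45.8 CPM against 30.6, 19.5 and 22.3 CPM without overlap and without a call (adjusted p = 0.273). Neither Gli3, a GLI factor that acts mainly as a repressor (0.59 ± 0.27), nor the co-receptor gene Boc (1.12 ± 0.49) nor Hhip, the decoy receptor gene that is itself a target (-0.90 ± 0.56), was called.

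**Figure D1:**
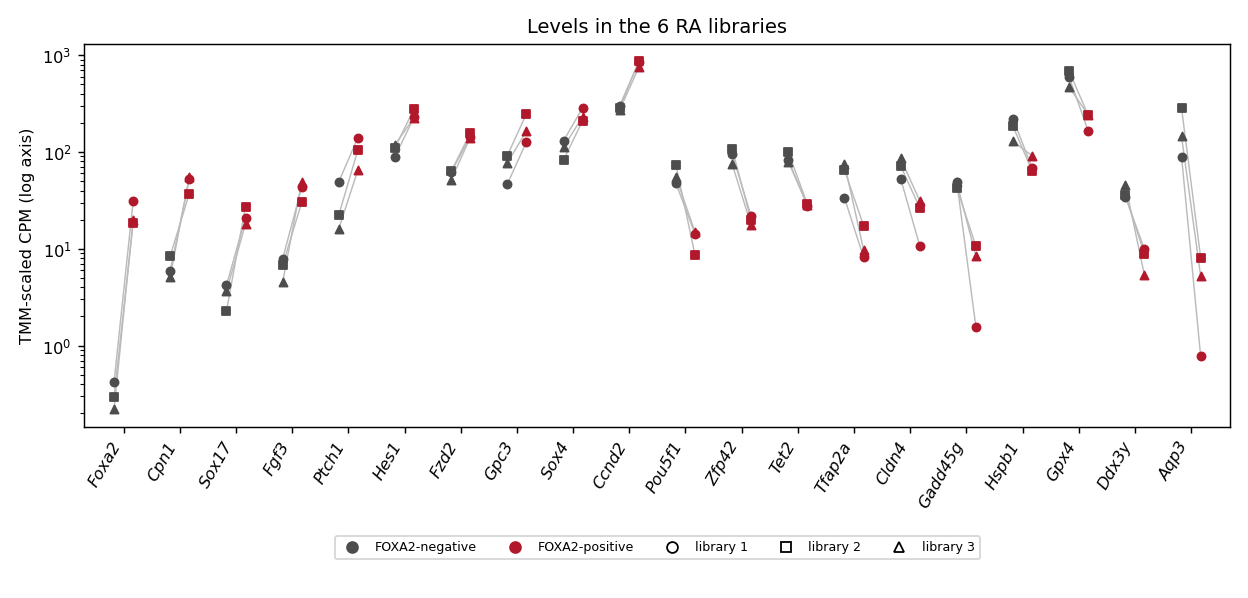
CPM on a log axis in each of the 6 RA libraries for 20 called genes, with colours for the fractions, shapes for the library numbers and a line joining each pair. Foxa2 stands at 30.9, 18.4 and 19.8 CPM in the FOXA2-positive libraries and at 0.418, 0.294 and 0.22 CPM in the others, and in each of the 20 genes the 3 lines run the same way.

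Of the lists described here the endoderm list had the highest median. Of 17 tested members 2 were called higher, Sox17 and Cpn1, and the median was 1.90, or 1.28 over 19 members with no filter on low counts and 1.27 over 11 with a filter of 5 CPM in 2 libraries. Sox17, the factor that specifies definitive endoderm, had 21, 27.3 and 18.1 CPM against 4.18, 2.25 and 3.62 CPM. Its lowest FOXA2-positive library was well above its highest FOXA2-negative one (2.72 ± 0.56, adjusted p = 0.0101), a call lost without FOXA2-negative library 2 (adjusted p = 0.0844). Cpn1 (chr19:43956307-43986556, minus strand, mm10), a subunit of carboxypeptidase N, had 52.5, 37.3 and 55.2 CPM against 5.96, 8.42 and 5.16 CPM, and its libraries of each fraction stayed close together (2.89 ± 0.51, adjusted p = 0.00438). Without both libraries numbered 1 neither was called (adjusted p = 0.055 and 0.0756). Gata6, an endoderm and primitive endoderm factor, had 19.5, 9.38 and 21.5 CPM against 7.53, 4.11 and 0.659 CPM. Its fractions did not overlap, and it was not called (adjusted p = 0.515). Foxa3, the third FOXA gene, had 0.443, 0.938 and 1.84 CPM against 7.42, 6.07 and 0 CPM, with no common direction. Cxcr4, a receptor of endoderm and mesoderm, did not pass 3.58 CPM, and Cer1, an endoderm antagonist gene, had 0 counts throughout.

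The window before the start of Cpn1 is shown since Cpn1 was one of the 2 endoderm genes called and since it holds a match to a forkhead motif. It is from RefSeq on GRCm38.p6 (chr19:43986557-43986770, minus strand), 5′ to 3′, with matches to TGTTTAC, a FOXA motif, and to CTTTGAT, a motif of the Wnt effectors TCF and LEF, in capitals.
Cpn1: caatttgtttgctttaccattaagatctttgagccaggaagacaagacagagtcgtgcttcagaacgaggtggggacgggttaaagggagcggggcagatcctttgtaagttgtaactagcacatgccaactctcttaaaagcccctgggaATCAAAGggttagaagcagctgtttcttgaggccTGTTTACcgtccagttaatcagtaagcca
The FOXA match begins 65 bases before the RefSeq start, and the TCF match lies on the opposite strand, its first base 99 before the start. The sequence printed stops where the mm10 gene begins, and positions are counted from the RefSeq start. Both strands of the 250 bases before each RefSeq start were searched, with 1 window per gene. TGTTTAC was in 2.24% of the windows of 11878 tested genes, 1.92% of 52 called higher and 3.92% of 102 called lower.

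Of 20 tested neural progenitor genes 2 were called higher (10%, against 0.371% of all genes tested) and none lower, with a median of 0.43. Cdh2, which encodes N-cadherin, the cadherin of neural epithelium, had 56.5, 32.6 and 31.5 CPM against 17.7, 12.1 and 10.5 CPM, and the pair numbered 1 was the highest within each fraction (1.58 ± 0.37, adjusted p = 0.0282). Its call ended without FOXA2-negative library 2 or 3 or FOXA2-positive library 1 (adjusted p between 0.134 and 0.199) and without both libraries numbered 1 (adjusted p = 0.156). Sox4, a SOXC factor of neural differentiation, had 286, 211 and 232 CPM against 130.5, 82.6 and 112 CPM, every FOXA2-positive library being above 200 and every FOXA2-negative one below it (1.16 ± 0.18, adjusted p = 0.000572). Its relative Sox11 had 196, 123 and 139 CPM against 115, 69.6 and 70.5 CPM, without overlap, and was called with the replicate block (adjusted p = 0.0464; 0.109 without). Sox2, the SOXB1 factor shared by pluripotent and neural cells, had 128, 105 and 86.6 CPM against 128, 80.3 and 91.8 CPM, and its fractions overlapped (0.09 ± 0.19). Pax6, a progenitor factor, had 61.6, 57.8 and 67.8 CPM against 42.4, 29 and 43.5 CPM without overlap (adjusted p = 0.203). Of 14 proneural and neuronal genes Tubb3 was called, and it was lower. This neuronal tubulin gene had 7.74, 8.16 and 9.92 CPM against 34.2, 37.1 and 44 CPM, with every FOXA2-positive library under 10 and every FOXA2-negative one above 34 (-2.16 ± 0.33, adjusted p = 0.000626). It lies on chromosome 8, whose genes were shifted as a group (below).

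Hox genes, which set position along the body axis, had mostly positive log2 fold changes. Of 19 averaging 5 CPM or more, 18 were above 0. The 15 tested members of paralogue groups 1 to 5 had a median of 0.54, and the 14 posterior members a median of 0.77 with no call. Without both libraries numbered 1 these medians were 0.82 and 1.38. Hoxb1, on chromosome 11, had 129, 267 and 195 CPM against 99.8, 139 and 185 CPM, which overlapped, and it was not called (adjusted p = 0.429). Hoxb5 had 14.4, 27.9 and 31 CPM against 6.79, 12.2 and 8.45 CPM, which did not overlap, and it was not called either (adjusted p = 0.13). The Hoxa cluster lies on chromosome 6, which was shifted upward (below).

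Of 23 tested genes that handle or answer RA, 1 was called, Stra8. It was lower (4.35% of the list, against 0.82% of all genes tested), and the median over the list was 0.24. Stra8 (chr6:34920163-34939344, plus strand), a direct RA target first known from germ cells entering meiosis, had 543, 622 and 503 CPM against 1093, 833 and 912 CPM. Every FOXA2-negative library was above every FOXA2-positive one (-0.77 ± 0.16, adjusted p = 0.0133), although Stra8 lies on chromosome 6, where most genes were shifted the other way. Its call ended without FOXA2-negative library 1 or FOXA2-positive library 1 or 3 (adjusted p between 0.055 and 0.0973). With the replicate block 3 members were called higher and 2 lower. Among the higher ones were Crabp2, which carries RA to its receptors (337, 424 and 363 CPM against 199, 294 and 227 CPM, block adjusted p = 0.00244), and the homeobox cofactor gene Meis1 (block adjusted p = 0.0202). Rarg, the RA receptor gene of early embryonic cells, was the other lower one, at 26.8, 45.4 and 34.4 CPM against 79.4, 104 and 57.6 CPM (block adjusted p = 0.00621; 0.075 without). Crabp1, which binds RA in the cytoplasm, had 518, 355 and 598 CPM against 193, 190.3 and 212 CPM, without overlap and without a call in either fit. Cyp26a1, which breaks RA down, had 29.3, 47.8 and 42.5 CPM against 22.5, 93.8 and 82.2 CPM and went up in pair 1 and down in pairs 2 and 3. Cyp26b1, with the same role, had 4.2, 1.78 and 4.3 CPM in FOXA2-positive libraries and at most 0.11 CPM in FOXA2-negative ones (adjusted p = 0.1).

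The windows that carry an RA response element at 2 of these genes are shown, from RefSeq on GRCm38.p6, since both genes are textbook RA targets and neither was called. They are Cyp26a1 (chr19:37697738-37697797, plus strand) and Rarb (chr14:16575503-16575562, minus strand, before its internal RefSeq start), each 60 bases, 5′ to 3′, with the match to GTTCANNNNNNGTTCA in capitals.
Cyp26a1: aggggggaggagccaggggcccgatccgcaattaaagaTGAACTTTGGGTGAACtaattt
Rarb: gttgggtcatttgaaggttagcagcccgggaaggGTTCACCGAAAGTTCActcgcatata
In Cyp26a1 the match lies on the opposite strand. The motif was in 0.0421% of the windows of tested genes and in none of those of genes called higher or lower. Rarb, an RA receptor gene, had 16.7, 13.9 and 17 CPM against 11.3, 11 and 12.6 CPM, with every FOXA2-positive library slightly above the others (adjusted p = 0.835).

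Every call in the Wnt and FGF lists was higher. Of 39 tested Wnt genes 4 were called higher and none lower (median 0.41), and of 29 FGF and ERK feedback genes 2 and none (median 0.35). Sp5, a zinc finger gene switched on directly by Wnt signalling, had 27.1, 34.2 and 29.5 CPM against 7.94, 5.49 and 11.7 CPM, with all FOXA2-positive libraries above 27 (1.85 ± 0.37, adjusted p = 0.00885), a call lost without FOXA2-negative library 2 (adjusted p = 0.0754). Fzd2, a Wnt receptor gene, had 143, 156 and 141 CPM against 62.1, 63.1 and 51.4 CPM, and the libraries of each fraction were close to each other (1.32 ± 0.23, adjusted p = 0.00232). Prickle1, of the planar cell polarity branch, had 47.6, 26.7 and 33.7 CPM against 9.09, 8.62 and 7.9 CPM (2.07 ± 0.39, adjusted p = 0.00553). The FOXA2-positive library numbered 1 was the highest there, and without both libraries numbered 1 the call was lost (adjusted p = 0.0844). Dact2, which modulates Wnt and Nodal receptors, was the last of the 4 (1.08 ± 0.27, adjusted p = 0.0472), a call that ended without FOXA2-negative library 1, 2 or 3 or FOXA2-positive library 2 or 3 (adjusted p between 0.0659 and 0.219). Fgf3, an FGF ligand gene of the hindbrain and otic region, had 43.1, 30.1 and 49.5 CPM against 7.84, 6.76 and 4.5 CPM. The lowest FOXA2-positive value was more than 20 CPM above the highest FOXA2-negative one (2.68 ± 0.46, adjusted p = 0.00232). Flrt3, an adhesion protein gene that also assists FGF receptors, had 102, 70.8 and 59.3 CPM against 35, 20.8 and 19.4 CPM, with pair 1 the highest in both fractions (1.62 ± 0.30, adjusted p = 0.00383). Dusp6, a feedback phosphatase of ERK, had 37.6, 39.8 and 31.6 CPM against 23.2, 32.7 and 22.1 CPM, and its fractions overlapped (adjusted p = 0.54). Fgf4, the FGF ligand of pluripotent cells, went the other way in size, at 3.21, 2.06 and 1.74 CPM against 5.54, 15.9 and 17.1 CPM, and was not called (adjusted p = 0.145).

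Sp5 is shown as the Wnt target with a match in its window, from RefSeq on GRCm38.p6 (chr2:70474673-70474922, plus strand), 5′ to 3′, with CTTTGAT in capitals.
Sp5: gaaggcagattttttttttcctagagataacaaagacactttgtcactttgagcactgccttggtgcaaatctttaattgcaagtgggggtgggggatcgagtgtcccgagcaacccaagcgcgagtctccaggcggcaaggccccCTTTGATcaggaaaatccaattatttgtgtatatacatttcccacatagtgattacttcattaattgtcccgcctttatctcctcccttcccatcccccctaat
The match begins 104 bases before the start. CTTTGAT, on either strand, was in 4 of the 52 windows of genes called higher (7.69%), in 1 of 102 of those called lower (0.98%) and in 2.28% of all tested.

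In the Notch list, Hes1 was called among 20 tested (median 0.10). Hes1, the repressor that Notch induces, had 230.0, 278 and 227 CPM against 89.1, 111 and 119 CPM, every FOXA2-positive library being above 220 and every FOXA2-negative one below 120 (1.20 ± 0.21, adjusted p = 0.00232). In the Nodal list 1 of 19 was called lower (median -0.27). Nodal, a TGF-beta family ligand of mesoderm and endoderm induction, had 1.66, 2.16 and 1.94 CPM against 9.62, 29.6 and 12.7 CPM (-3.16 ± 0.71, adjusted p = 0.0196), and FOXA2-negative library 2 was the highest. That call ended without FOXA2-negative library 2 or FOXA2-positive library 1, 2 or 3 (adjusted p between 0.0875 and 0.223). Its antagonist gene Lefty1 had 3.87, 1.97 and 0 CPM against 0.523, 56.1 and 37.1 CPM, high in FOXA2-negative libraries 2 and 3 alone, and was not called. In the BMP list 2 of 25 were called higher, Id3 and Fstl1, and 1 lower, Msx2 (median 0.25). Id3, an inhibitor of helix-loop-helix factors and a BMP target, had 207, 186 and 199.7 CPM against 97.5, 133 and 124 CPM (0.74 ± 0.18, adjusted p = 0.0308). Its fractions did not overlap, yet leaving out any 1 of the 6 libraries ended the call (adjusted p between 0.0572 and 0.119). The relatives Id1 and Id2 were not called (0.40 ± 0.28 and 0.32 ± 0.22). Fstl1, a secreted binder of TGF-beta ligands, was higher by 0.76 ± 0.19 (adjusted p = 0.0447), a call lost without FOXA2-negative library 2 or 3 or FOXA2-positive library 1, 2 or 3 (adjusted p between 0.116 and 0.221). Msx2, a BMP target of the dorsal neural tube, had 4.31, 2.44 and 1.33 CPM against 8.15, 7.93 and 12.6 CPM (-1.83 ± 0.43, adjusted p = 0.0327), a call that ended without FOXA2-negative library 2 or 3 or FOXA2-positive library 2 or 3 (adjusted p between 0.0601 and 0.183), whereas Msx1 had 340.3, 394 and 416 CPM against 124, 188 and 299 CPM and was not called (adjusted p = 0.235). No gene was called among 32 Eph, ephrin and guidance receptor genes (median 0.35), 21 primitive streak and mesoderm genes (median 0.21) and 13 Hippo and YAP targets (median 0.01). Over all genes tested 1.19% were called, so the lack of a call in lists of this size says little about their members.

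Some pluripotency genes were lower. Of 12 tested core genes 6 were called lower, of 16 naive genes 3 (Zfp42, Tet2 and Spp1), and no member of either list was called higher. The medians were -1.59 and -2.30, and all 16 naive genes had negative log2 fold changes. Without both libraries numbered 1 the counts were 5 and 2. Pou5f1, which encodes OCT4 at the centre of the network, had 14.3, 8.63 and 14.9 CPM against 47.7, 74.1 and 55.3 CPM, with FOXA2-negative library 2 the highest and no FOXA2-positive library above 15 (-2.23 ± 0.29, adjusted p = 0.000106). Nanog (chr6:122707489-122714633, plus strand, mm10), its partner, had 0.111, 1.22 and 0.614 CPM against 16.6, 13.6 and 14.6 CPM. No FOXA2-positive library passed 1.22 CPM, and the call (-4.48 ± 0.89, adjusted p = 0.00839) was lost without FOXA2-positive library 3 (adjusted p = 0.0554). Zfp42, the naive marker REX1, had 21.8, 19.7 and 17.5 CPM against 95.4, 108 and 75.6 CPM, no FOXA2-positive library being above 22 (-2.24 ± 0.26, adjusted p = 1.35e-05). Zfp42 lies on chromosome 8 and Nanog on chromosome 6, and the chromosome shifts described below are smaller than either fold change.

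Utf1, a chromatin factor of undifferentiated cells, had 20.6, 22.1 and 20.8 CPM against 74.8, 130.2 and 72.2 CPM, with FOXA2-positive libraries within 2 CPM of each other (-2.13 ± 0.30, adjusted p = 0.000319). Dppa2, which keeps developmental promoters open to activation, had 7.19, 13.7 and 8.49 CPM against 43.4, 51.3 and 51.8 CPM (-2.31 ± 0.42, adjusted p = 0.00337). L1td1, an RNA-binding protein gene derived from a LINE-1 element, had 19, 17 and 26 CPM against 86, 124 and 73 CPM (-2.17 ± 0.36, adjusted p = 0.00232). In these 3 genes the fractions lay far apart relative to the spread within them. Dppa5a, another RNA-binding protein gene, had 239, 277 and 359 CPM against 553, 742 and 529.5 CPM (-1.06 ± 0.18, adjusted p = 0.00232), with every FOXA2-positive library below every other one. The naive factor gene Esrrb had 2.1, 0.469 and 0.921 CPM against 13.6, 9.5 and 4.61 CPM, and Klf2 had 0.774, 11.1 and 16 CPM against 81.6, 56.3 and 104 CPM. Both were without overlap and without a call (adjusted p = 0.252 and 0.208). Tdgf1, the Nodal co-receptor Cripto, had 0 counts in FOXA2-positive libraries and 14.1, 27.6 and 19.4 CPM in FOXA2-negative ones, at least 202-fold lower against the floor, and missed the threshold (adjusted p = 0.0849). Sall4, also expressed beyond pluripotency, had 945, 1450.1 and 1538 CPM against 1073, 1824 and 1845 CPM, which overlapped. Of 12 primed genes Dnmt3a and Dnmt3l, described below, were called lower (median -0.18).

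The windows before Nanog and Zfp42, which were lower together, are shown from RefSeq on GRCm38.p6 (Nanog chr6:122707239-122707488, plus strand; Zfp42 chr8:43307010-43307259, minus strand), 5′ to 3′. Capitals mark ATGCAAA, the core of the octamer that OCT4 binds, and ACAATG, a SOX core, on either strand.
Nanog: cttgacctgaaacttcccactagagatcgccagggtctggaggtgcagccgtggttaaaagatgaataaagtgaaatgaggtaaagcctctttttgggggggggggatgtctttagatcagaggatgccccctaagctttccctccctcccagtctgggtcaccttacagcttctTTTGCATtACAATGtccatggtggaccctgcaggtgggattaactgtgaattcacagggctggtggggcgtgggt
Zfp42: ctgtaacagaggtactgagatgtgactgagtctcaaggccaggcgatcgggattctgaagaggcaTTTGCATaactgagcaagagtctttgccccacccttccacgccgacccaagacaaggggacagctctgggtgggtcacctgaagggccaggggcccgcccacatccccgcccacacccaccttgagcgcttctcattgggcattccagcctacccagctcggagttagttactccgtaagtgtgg
In Nanog the octamer core, on the opposite strand, begins 75 bases before the start and the SOX core 67 bases before it. In Zfp42 the octamer core is on the opposite strand, 185 bases before the start. The octamer core was in 7 of 102 windows of genes called lower (6.86%), in 0 of 52 of those called higher and in 3.03% of all tested, and the SOX core in 5.88%, 3.85% and 6.09%.

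The list with the lowest median was that of the 2-cell-like state, a rare and passing condition of stem cells that resembles the 2-cell embryo. Of 14 tested members 6 were called lower and none higher (0.82% of all genes were lower). The median was -6.62, or -5.64 with groups at 0 counts set at their bound. With no filter on low counts 10 of 16 were called lower, with a median of -6.31. Members with 0 counts in the RA FOXA2-positive libraries passed the filter only through other libraries, so they could not come out higher. The list was written with earlier results of these data known. With the replicate block 9 were called and without both libraries numbered 1 only Zscan4c was. Zscan4d had 0 counts in the 3 FOXA2-positive libraries and 59, 78.3 and 76.6 CPM in FOXA2-negative ones, at least 701-fold lower (adjusted p = 0.00511). Zscan4c, which protects telomeres in this state, had 1 count in all FOXA2-positive libraries together and 37.6, 67.2 and 44.9 CPM in the others. Its ratio was 1485 with an exact 95% binomial interval of 266 to 58680 (adjusted p = 0.000453). That interval is on counts summed over libraries, so it covers counting error and not the spread between libraries. Zscan4e had 0, 0.657 and 0 CPM against 63.6, 49.5 and 56.1 CPM (adjusted p = 0.0321), a call that ended when any 1 of the 6 libraries was left out (adjusted p between 0.0608 and 0.147). Zscan4a had 0 counts against 60.8, 70.8 and 54.3 CPM, at least 612-fold lower, but was called with the replicate block alone (adjusted p = 7.49e-09; 0.237 without). In every Zscan4 gene named here the 3 FOXA2-negative libraries were of like height, so each of them held the signal. Usp17lc, Usp17lb and Usp17le, deubiquitinase genes, were lower too, at 25.5, 35 and 7.36 CPM, 28.9, 24.7 and 2.53 CPM and 32, 16.7 and 6.81 CPM in FOXA2-negative libraries and at most 1.78 CPM in FOXA2-positive ones. Their calls ended without FOXA2-positive library 1, 2 or 3 (adjusted p between 0.077 and 0.0961) for Usp17lc, without FOXA2-negative library 1 or 2 or FOXA2-positive library 1, 2 or 3 (adjusted p between 0.0565 and 0.139) for Usp17lb and without FOXA2-negative library 1 or 2 or FOXA2-positive library 1 or 3 (adjusted p between 0.0612 and 0.111) for Usp17le. Zscan4 and Usp17l genes are near-identical copies. Reads set down as not uniquely aligned, 18.4% to 21.5% of reads in the RA libraries, were left out. The levels of single copies rest on the other reads and are uncertain. Zfp352, another gene of that state, had 0 counts against 8.05, 0 and 3.62 CPM. Eif1a, a list member with many reads in all 6 libraries, had 178, 203 and 206 CPM against 205, 254 and 224 CPM. Neither was called. Predicted genes could not be named by the rule, and called ones with 0 counts in FOXA2-positive libraries are counted under Other observations.

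How alike the copies are can be seen in stretches of 100 bases upstream of Zscan4c (chr7:11005597-11005696, plus strand) and Zscan4d (chr7:11166208-11166307, minus strand), from RefSeq on GRCm38.p6, 5′ to 3′, each ending at a TATAAA in capitals, whose first base lies 54 bases before the RefSeq start in Zscan4c and 65 in Zscan4d. The stretches match at 96 of 100 positions.
Zscan4c: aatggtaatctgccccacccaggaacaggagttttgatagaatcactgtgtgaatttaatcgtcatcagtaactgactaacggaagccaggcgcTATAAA
Zscan4d: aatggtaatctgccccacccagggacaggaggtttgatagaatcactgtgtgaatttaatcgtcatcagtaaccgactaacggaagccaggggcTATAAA
TATAAA, on either strand, was in 17.6% of the 102 windows of genes called lower, 5.77% of the 52 called higher and 6.42% of all tested. Near-identical copies such as Zscan4c and Zscan4d count as separate windows among those called lower, so these windows are not all independent.

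Some germline and DNA methylation genes were lower too. Of 23 tested germline genes 3 were called lower, Tex19.1, Tdrd12 and the RA target Stra8 (median -0.72), and none without both libraries numbered 1. Tex19.1, which protects germ cells against transposons, had 13.2, 23.3 and 15.4 CPM against 55.5, 72.4 and 29.6 CPM (-1.60 ± 0.33, adjusted p = 0.0107), a call lost without FOXA2-negative library 2 or FOXA2-positive library 1 or 3 (adjusted p between 0.0664 and 0.105). Tdrd12, a piRNA pathway helicase gene, had 8.3, 7.98 and 8.18 CPM against 16.9, 18.9 and 39.6 CPM (-1.62 ± 0.37, adjusted p = 0.0214), a call that ended without FOXA2-negative library 3 or FOXA2-positive library 1, 2 or 3 (adjusted p between 0.0782 and 0.221). The FOXA2-positive values of Tdrd12 were nearly equal, and FOXA2-negative library 3 was above the other two. Of 22 DNA methylation and chromatin genes 3 were called lower (median -0.19). Dnmt3l, the cofactor of the de novo methyltransferases, had 3.54, 13.7 and 15.5 CPM against 66.4, 59.6 and 36.1 CPM (-2.30 ± 0.40, adjusted p = 0.00232). Dnmt3a, a de novo methyltransferase gene, had 62.6, 44.7 and 48.9 CPM against 136, 115 and 93.8 CPM (-1.14 ± 0.24, adjusted p = 0.0121), a call lost without FOXA2-positive library 2 or 3 (adjusted p between 0.0671 and 0.0902), and its relative Dnmt3b was not called (-0.30 ± 0.15). Tet2, which oxidises methylcytosine, had 27.8, 28.9 and 28.5 CPM against 82.9, 100.2 and 79.7 CPM, tight in both fractions and well apart (-1.62 ± 0.32, adjusted p = 0.00784). Jarid2, a partner of the Polycomb complex, had 127, 66.5 and 85.5 CPM against 198, 166 and 142 CPM and was called lower with the replicate block (adjusted p = 0.00287; 0.0668 without).

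Without both libraries numbered 1 the number of calls fell to 1 in the Wnt, neural progenitor and DNA methylation lists. It fell to 0 in the RA, Nodal, heat shock and endothelial lists, and the BMP, imprinted and glycolysis lists then held 1, 2 and 2 calls. The floor plate, Hedgehog, Notch, FGF, cell cycle, p53, proneural and matrix lists held as many calls as before.

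**Figure D2:**
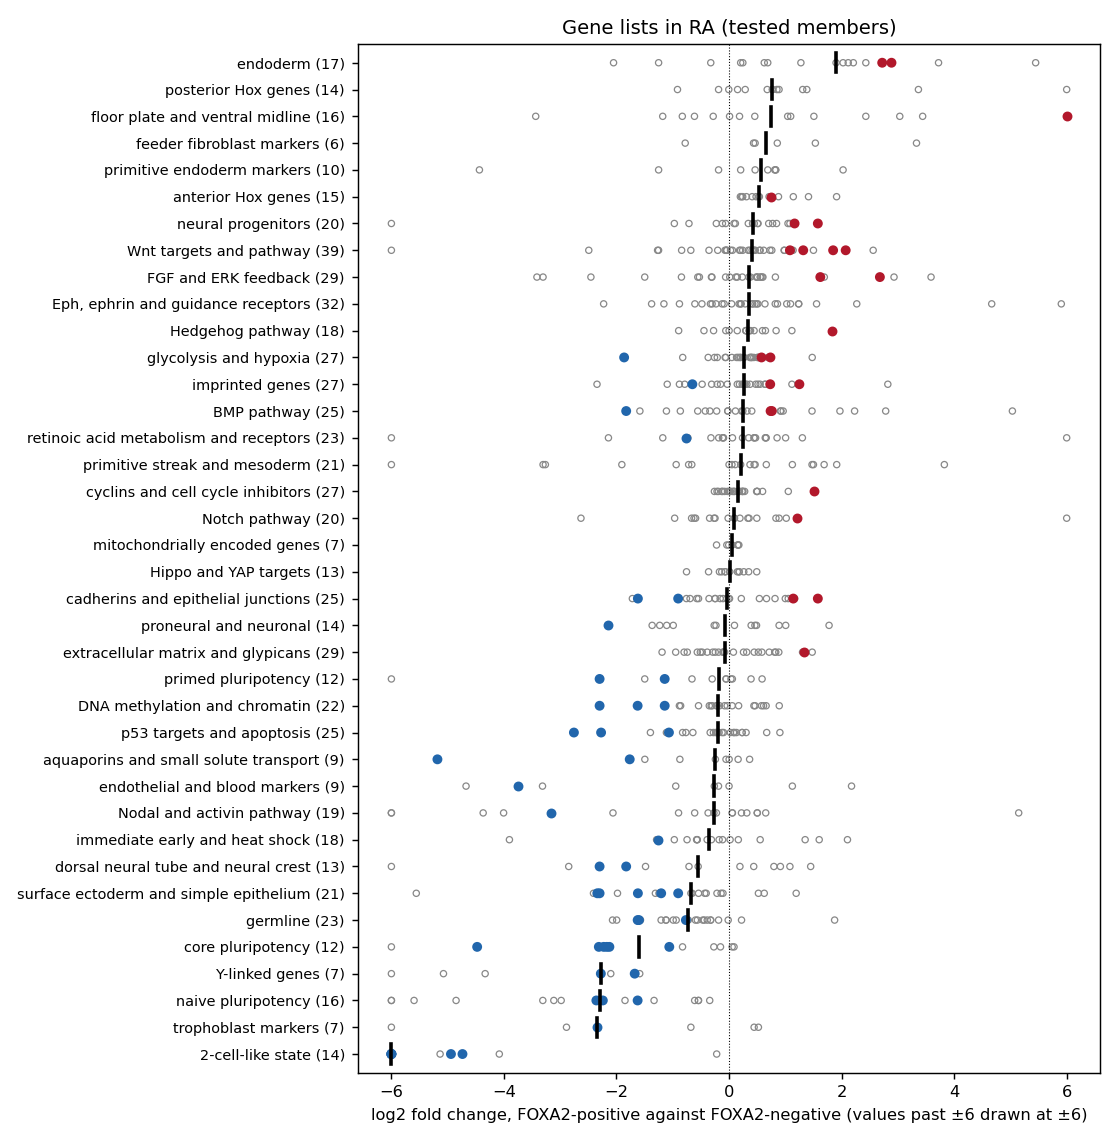
Log2 fold change (FOXA2-positive minus FOXA2-negative, after RA) of every tested member of the gene lists, 1 row per list, with genes called higher in red, genes called lower in blue, other members as open circles and the median of each list as a bar. Values past 6 in size are drawn at the edge, as is the median of the 2-cell-like list (-6.62), and the endoderm list lies furthest to the right, at a median of 1.90.

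Some epithelial and surface ectoderm genes were lower. Of 21 tested members 5 were called lower and none higher (median -0.68), and 4 without both libraries numbered 1. Tfap2c, an AP-2 factor of ectoderm, germ cells and pluripotent cells, had 11.5, 10.5 and 11.2 CPM against 54.3, 70.4 and 43.4 CPM, with FOXA2-positive libraries within about 1 CPM of each other (-2.34 ± 0.26, adjusted p = 7.45e-06). Tfap2a, its relative in surface ectoderm and neural crest, had 8.19, 17.4 and 9.82 CPM against 33.6, 65.4 and 76 CPM (-2.30 ± 0.41, adjusted p = 0.00594). Cdh1, the gene of E-cadherin, had 87.9, 56.4 and 69.7 CPM against 156, 132 and 112 CPM, its difference being the reverse of that of Cdh2 (-0.90 ± 0.19, adjusted p = 0.0122). The call ended without FOXA2-negative library 1 or FOXA2-positive library 2 or 3 (adjusted p between 0.0567 and 0.114), and Cdh1 lies on chromosome 8. Cldn4, a tight junction gene, had 10.7, 26.6 and 31.3 CPM against 53.2, 71.8 and 86.2 CPM, and each pair was separated by more than 40 CPM (-1.62 ± 0.31, adjusted p = 0.00637). Krt8, a keratin of simple epithelia, had 26.3, 29.9 and 52.1 CPM against 76.1, 108 and 65.9 CPM (-1.21 ± 0.27, adjusted p = 0.0193), a call that ended without FOXA2-negative library 2 or FOXA2-positive library 1 or 2 (adjusted p between 0.12 and 0.156). Its partner Krt18 had 75.2, 86.5 and 121 CPM against 122, 169.9 and 154 CPM, nearly touching without overlap, and was called with the replicate block (adjusted p = 0.0089; 0.0579 without). Gata2, a surface ectoderm and blood factor, had 5.53, 5.54 and 1.33 CPM against 26.7, 25.2 and 14.2 CPM and was also called lower with the block alone (adjusted p = 4.94e-05; 0.0602 without). Gata3, with a like role, had 19, 26.7 and 27.1 CPM against 15.1, 14.6 and 21.1 CPM, and Krt19 28.9, 27.1 and 24.1 CPM against 21.6, 11.9 and 18.4 CPM. Neither of them was called. The dorsal neural tube list had Msx2 and Tfap2a called lower among 13 (median -0.55, and -0.06 without both libraries numbered 1), while Olig3, a dorsal progenitor factor, had 2.32, 3.66 and 3.17 CPM against 6.69, 45.7 and 13.8 CPM with FOXA2-negative library 2 far above the rest and no call (adjusted p = 0.0773).

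Among genes of the cell surface and matrix, 1 matrix list member was called and other surface genes met the naming rule or belonged to other lists. Emb, which encodes the immunoglobulin family protein embigin, had 442, 426 and 322 CPM against 184, 202 and 155 CPM, every FOXA2-positive library standing above 320 and every FOXA2-negative one at or below 202 (1.14 ± 0.17, adjusted p = 0.000453). Gpc3, the glypican that binds Hedgehog and Wnt ligands, had 127, 249 and 165 CPM against 46.6, 91.7 and 77 CPM and was the 1 member called among 29 matrix and glypican genes (1.33 ± 0.24, adjusted p = 0.00341). Library 2 was the highest in both fractions. Prtg, encoding protogenin, a receptor of the early neural tube and mesoderm, had 1594, 1042 and 899 CPM against 729, 591 and 522 CPM, with pair 1 the highest (0.94 ± 0.17, adjusted p = 0.004). Ptprz1, a receptor phosphatase gene of neural progenitors, had 64.5, 26.4 and 25.5 CPM against 13.6, 6.56 and 10.4 CPM (1.93 ± 0.46, adjusted p = 0.0336), a call that ended without FOXA2-negative library 2 or 3 or FOXA2-positive library 1 (adjusted p between 0.104 and 0.281). Ptprz1 lies on chromosome 6, whose genes were shifted upward (below). Pecam1, an adhesion gene of endothelium and of pluripotent cells, had 0.443, 1.97 and 1.94 CPM against 23.5, 21.6 and 14.1 CPM (-3.74 ± 0.74, adjusted p = 0.0076). Folr1, a folate receptor gene, had 88.1, 161 and 162 CPM against 216, 268 and 271 CPM (-0.87 ± 0.19, adjusted p = 0.0162), a call lost without FOXA2-negative library 2 or 3 or FOXA2-positive library 1 (adjusted p between 0.0669 and 0.0952), and Nectin2, an adherens junction gene, 120.5, 169 and 165 CPM against 187, 273 and 317 CPM (-0.77 ± 0.17, adjusted p = 0.0196), a call that ended without FOXA2-negative library 2 or 3 or FOXA2-positive library 1 (adjusted p between 0.0975 and 0.156). In both of these genes pair 1 was the lowest in each fraction. Aqp3, a channel for water and glycerol, had 0.774, 8.07 and 5.22 CPM against 89.4, 285 and 145 CPM (-5.18 ± 0.72, adjusted p = 0.00341), with FOXA2-negative library 2 the highest. Spp1, which encodes the secreted protein osteopontin, had 1.11, 8.35 and 10.8 CPM against 26, 42.9 and 35.7 CPM (-2.36 ± 0.52, adjusted p = 0.0196), a call lost without FOXA2-negative library 2 or 3 or FOXA2-positive library 2 (adjusted p between 0.0504 and 0.0894).

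In the cell cycle, stress and metabolic lists the calls were as follows, beside 0.371% higher and 0.82% lower of all genes tested. Ccnd2, cyclin D2, was the 1 called of 27 cell cycle genes, at 853, 864 and 749 CPM against 302, 286 and 273 CPM, and the libraries of each fraction lay close together (1.52 ± 0.16, adjusted p = 7.45e-06). Ccnd2 lies on chromosome 6, whose genes were shifted upward by a median of 0.31 (below). Ccnd1, another D-type cyclin gene, had 300.0, 291 and 299 CPM against 233, 202 and 194 CPM without overlap and without a call (adjusted p = 0.148). Of 25 p53 target and apoptosis genes 3 were called lower (12%). Sfn, the cell cycle brake 14-3-3 sigma that epithelia also express, had 12.4, 34 and 26.5 CPM against 109.5, 93 and 151 CPM (-2.27 ± 0.33, adjusted p = 0.000438). Gadd45g, a growth arrest gene, had 1.55, 10.6 and 8.39 CPM against 48.8, 42.6 and 48.5 CPM, with the FOXA2-positive library numbered 1 the lowest (-2.76 ± 0.46, adjusted p = 0.00232). Btg2, an antiproliferative gene, was the third (-1.07 ± 0.24, adjusted p = 0.0191), a call that ended without FOXA2-negative library 2 or 3 or FOXA2-positive library 1 (adjusted p between 0.0886 and 0.125). Cdkn1a, the classical p53 target p21, had 166, 244 and 192 CPM against 182, 142 and 188 CPM, which overlapped. Of 18 immediate early and heat shock genes Hspb1, the small heat shock protein HSP27, was called lower, at 68.3, 63.7 and 91.5 CPM against 222, 184 and 129 CPM (-1.26 ± 0.22, adjusted p = 0.00232). The larger chaperone genes Hsp90aa1 and Hspa8 were not called (-0.39 ± 0.17 and -0.18 ± 0.15). Gpx4, which detoxifies lipid peroxides, had 164, 239 and 241 CPM against 593, 682 and 468 CPM, with a gap of over 200 CPM between the fractions (-1.44 ± 0.19, adjusted p = 9.84e-05).

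Among 27 glycolysis and hypoxia genes 2 were called higher and 1 lower (median 0.27). Slc2a1, the glucose transporter GLUT1, had 571, 603 and 611 CPM against 437, 391 and 368 CPM (0.58 ± 0.13, adjusted p = 0.0196), a call lost without FOXA2-negative library 2 or 3 or FOXA2-positive library 2 or 3 (adjusted p between 0.0871 and 0.107). Tpi1, triosephosphate isomerase, on chromosome 6, had 246, 314 and 332 CPM against 162, 197 and 177 CPM (0.74 ± 0.15, adjusted p = 0.00833), a call that ended without FOXA2-positive library 3 (adjusted p = 0.066). Pfkp, the platelet form of phosphofructokinase, went down, at 4.42, 11.4 and 4.71 CPM against 22.2, 32.4 and 20.6 CPM (-1.86 ± 0.42, adjusted p = 0.0221), a call lost without FOXA2-negative library 2 or FOXA2-positive library 1 or 3 (adjusted p between 0.13 and 0.145). None of the 3 overlapped between fractions, and Ldha, lactate dehydrogenase A, which did not overlap either, was not called (0.41 ± 0.17). Of 27 imprinted genes, which are expressed from 1 parental allele, Nnat and Gnas were called higher and Mest lower (median 0.26). Nnat, a proteolipid gene of the developing brain, had 143, 183 and 159.9 CPM against 49.5, 59.9 and 95 CPM, with FOXA2-negative library 3 the closest to the other fraction (1.25 ± 0.21, adjusted p = 0.00144). Gnas, the stimulatory G protein subunit, was higher by 0.73 ± 0.16 (adjusted p = 0.0169), a call that ended without FOXA2-negative library 2 or FOXA2-positive library 1 or 3 (adjusted p between 0.0517 and 0.142). Slc38a4, an amino acid transporter gene that was called lower with Aqp3 among 9 solute transport genes, had 6.64, 6.48 and 12.6 CPM against 33.5, 21.3 and 32.7 CPM (-1.76 ± 0.41, adjusted p = 0.0262), a call lost without FOXA2-negative library 1 or 3 or FOXA2-positive library 1 or 2 (adjusted p between 0.0681 and 0.157). Igf2r, the receptor that clears IGF2, had 78.7, 131 and 163 CPM against 161, 243 and 238 CPM, which overlapped by 1 library of each fraction, and was called lower with the replicate block (adjusted p = 0.00129; 0.0612 without).

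**Figure D3:**
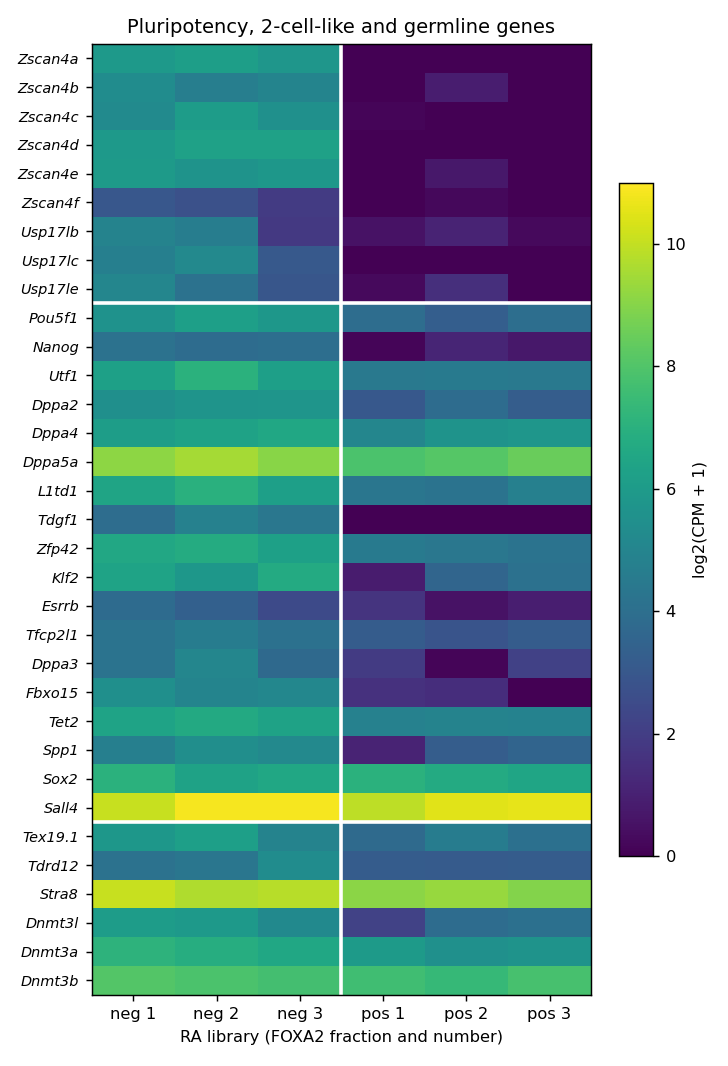
Level of pluripotency, 2-cell-like and germline or methylation genes in the 6 RA libraries, as log2(CPM + 1), with genes in rows and FOXA2-negative libraries to the left of the line. Zscan4 and Usp17l genes are dark in the 3 FOXA2-positive columns, Zscan4d at 0 counts in all of them, while Sox2 and Sall4 look alike in both fractions.

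Further genes stood out by size or level alone. Ptpn12, a phosphatase gene of cell motility, had 47.7, 42.9 and 46.4 CPM against 12.8, 15.5 and 8.56 CPM, over 27 CPM apart (1.89 ± 0.28, adjusted p = 0.000374). Arhgef28, an exchange factor gene for RHOA, had 33.5, 32 and 27.7 CPM against 2.72, 3.53 and 13.9 CPM, with FOXA2-negative library 3 well above the other two (2.21 ± 0.49, adjusted p = 0.0196), and its call ended without FOXA2-negative library 1 or 2 or FOXA2-positive library 1 or 2 (adjusted p between 0.0608 and 0.142). Srd5a1, a steroid reductase gene, and Tlx2, a homeobox gene on chromosome 6, were higher by 1.92 ± 0.45 and 1.84 ± 0.44 (adjusted p = 0.0261 and 0.0347). Leaving out any 1 of the 6 libraries ended both calls (Srd5a1 adjusted p between 0.0541 and 0.124; Tlx2 adjusted p between 0.0543 and 0.165). Lrp3, an LDL receptor family gene, had 29.1, 26.5 and 26.2 CPM against 7.84, 9.01 and 8.23 CPM, even within each fraction (1.70 ± 0.36, adjusted p = 0.0125), a call that ended without FOXA2-negative library 2 (adjusted p = 0.0542). Tmem151b, a membrane protein gene, was higher by 2.14 ± 0.50 (adjusted p = 0.0293), a call lost without FOXA2-negative library 1 or 2 or FOXA2-positive library 2 or 3 (adjusted p between 0.0789 and 0.161). Gprc5c, an orphan receptor gene that RA can induce, had 848, 1222 and 1103 CPM against 554, 677 and 718 CPM, pair 1 being the lowest in both fractions (0.70 ± 0.16, adjusted p = 0.0185), a call that ended without FOXA2-negative library 1 or 2 or FOXA2-positive library 2 or 3 (adjusted p between 0.0651 and 0.148).

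Among genes of lower level in FOXA2-positive cells, Morc1, which silences transposons in the male germline, had 1.33, 3.47 and 3.78 CPM against 30.6, 35.3 and 40.3 CPM, every FOXA2-negative library being at least 30 (-3.62 ± 0.52, adjusted p = 0.000319). Laptm5, a lysosomal membrane protein gene, had 0.553, 0.469 and 1.23 CPM against 11.3, 13.6 and 12.5 CPM (-4.03 ± 0.77, adjusted p = 0.0056), close together within each fraction. Lgals9, encoding galectin 9, had a log2 fold change of -5.12 ± 1.09 (adjusted p = 0.0171), a call lost without FOXA2-negative library 2 or FOXA2-positive library 1 or 3 (adjusted p between 0.0695 and 0.116). Dusp27, an atypical phosphatase family gene, and Gpa33, a cell surface gene of intestinal epithelium, had log2 fold changes of -3.63 ± 0.74 and -3.47 ± 0.73 (adjusted p = 0.0104 and 0.012). The first was lost without FOXA2-negative library 2 or FOXA2-positive library 1 or 3 (adjusted p between 0.0509 and 0.066), and the second without FOXA2-negative library 2 or FOXA2-positive library 2 or 3 (adjusted p between 0.0651 and 0.0875). Lzts1, a zipper protein gene on chromosome 8, had a log2 fold change of -3.81 ± 0.87 (adjusted p = 0.0441), a call lost without any 1 of the 6 libraries (adjusted p between 0.0617 and 0.186) and with the replicate block (adjusted p = 0.179). Ash2l, a subunit of the histone H3 lysine 4 methyltransferase complexes, also on chromosome 8, had 181, 189 and 202 CPM against 291, 287 and 319 CPM, with a small but even difference (-0.65 ± 0.12, adjusted p = 0.00571). The remaining most abundant genes by the naming rule had log2 fold changes of size 0.54 to 0.88. Those higher were Fkbp4, a cochaperone of HSP90, Igf2bp3, an RNA-binding protein, Atp2b1, a plasma membrane calcium pump, Pclaf, a PCNA-binding replication factor, and Pla2g1b, a phospholipase. Those lower were Chchd10, a mitochondrial protein gene, Rpa1, which binds single-stranded DNA, Eif4ebp1, a brake on translation, and Mest, an imprinted gene. Fkbp4 and Igf2bp3 lie on chromosome 6 and Eif4ebp1 on chromosome 8, each going the way its chromosome was shifted (below). Mest, on chromosome 6, went the other way. Each of these 9 calls was lost without 4 or 5 of the 6 libraries in turn, FOXA2-negative library 2 in all 9 and FOXA2-positive library 2 in 8 of them (adjusted p between 0.0512 and 0.267).

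The fold changes also followed chromosomes. Among genes averaging 20 CPM or more, the median difference on the log2 scale for chromosome 6 (332 genes) was 0.31, and within the pairs numbered 1, 2 and 3 it was 0.30, 0.36 and 0.23. On chromosome 8 (411 genes) it was -0.31, and -0.27, -0.35 and -0.27 within the pairs. The other 18 chromosomes, Y aside, lay between -0.02 and 0.10, so both shifts were present in each pair and beyond the rest. Of the chromosome 6 genes 84.0% had a positive log2 fold change, and of the chromosome 8 genes 17.3%. The shift ran along the whole of each chromosome, since, cut by position into 5 stretches of equal length, its medians were 0.27 to 0.36 on chromosome 6 and -0.35 to -0.27 on chromosome 8. Called genes on chromosome 6 were 14 higher and 6 lower of 933 tested, and on chromosome 8 there were 16 lower and none higher of 960 tested. Over all genes tested 0.371% were called higher and 0.82% lower. The part of these shifts in the calls of single genes was not tested, but with genes of chromosomes 6, 8 and Y left out 171 genes were called, and 38 of the 212 calls lie on those 3 chromosomes. The Y chromosome, which R1 cells carry as a male line, had 2 of 10 tested genes called lower. Ddx3y, an RNA helicase gene, had 9.85, 8.82 and 5.32 CPM against 34.7, 35.7 and 46.1 CPM, no FOXA2-positive library reaching 10 (-2.28 ± 0.37, adjusted p = 0.00111). Eif2s3y, a translation initiation subunit gene, had 9.51, 12.9 and 7.88 CPM against 37.3, 37.6 and 22.2 CPM (-1.68 ± 0.40, adjusted p = 0.0343), a call that ended without FOXA2-negative library 1 or 2 or FOXA2-positive library 1, 2 or 3 (adjusted p between 0.0649 and 0.177), and Uty, a histone demethylase relative, was called lower with the replicate block (adjusted p = 0.0417; 0.113 without).

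**Figure D4:**
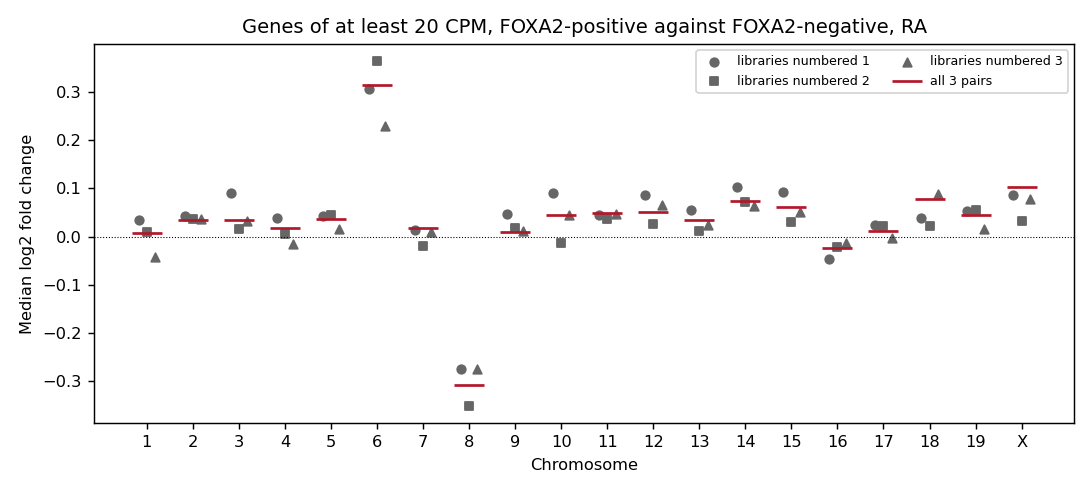
Median log2 fold change (FOXA2-positive minus FOXA2-negative, after RA) per chromosome over genes averaging 20 CPM or more, as a bar for all libraries and as points for the 3 pairs. Chromosome 6 lies at 0.31 and chromosome 8 at -0.31, and the other 18 chromosomes drawn lie between -0.02 and 0.10.

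Lists of markers of other cell types held 2 calls. Of 6 feeder fibroblast markers, 10 primitive endoderm markers, 7 trophoblast markers and 9 endothelial and blood markers that were tested, 0, 0, 1 and 1 were called, Tfap2c and Pecam1, both lower and both also expressed in pluripotent cells. The fibroblast markers summed to 16.2 to 17.9 CPM in FOXA2-positive and 7.42 to 18.8 CPM in FOXA2-negative libraries, and Col3a1, Postn, Dcn, Lum, Acta2 and S100a4 had 0 counts in all 6. The primitive endoderm markers summed to 190.7 to 202.4 CPM and 156.0 to 225.2 CPM, which overlapped. The trophoblast markers summed to 67.2 to 77.4 CPM and 122.1 to 147.2 CPM, with Plet1 and Prl3d1 at 0 counts. The endothelial and blood markers summed to 6.24 to 11.2 CPM and 23.1 to 34.8 CPM, Pecam1 being most of it in the FOXA2-negative libraries, while Cdh5, Tie1, Ptprc, Hbb-bh1 and Hba-x, which define those cells, had 0 counts in all 6 libraries. The part of the trophoblast marker sum in the other results was not tested.

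To see whether the fraction difference depended on treatment, it was compared between RA and each other arm by interaction terms in the same fit. After BMP4 164 genes were called between fractions (0.921%; 0.32% higher and 0.601% lower) and after LDN 177 (0.994%; 0.286% and 0.707%). In each interaction 1 gene of 17813 differed (0.00561%), and it was the same gene, Gm17251 (chr17:33759992-33761870, plus strand, mm10), annotated as a bidirectional promoter long non-coding RNA. It had 5.2, 6.1 and 6.04 CPM against 102, 170.2 and 226 CPM after RA. Only the RA FOXA2-negative libraries were high, since its means were 6.66 and 11.6 CPM after BMP4 and 8.89 and 8.66 CPM after LDN. The RA difference was -4.84 ± 0.42 (adjusted p = 2.39e-07), and it differed from that of BMP4 by -4.04 ± 0.54 (SE, adjusted p = 0.00133) and from that of LDN by -4.87 ± 0.57 (SE, adjusted p = 0.000102). At an unadjusted p under 0.05 the interactions held 742 and 1035 genes, and DESeq2 called 5 and 6. A gene called after RA alone is therefore not shown to differ between treatments.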

How the data were processed

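RNA of each library was sequenced with SMART-Seq v2, per the labels. For every library the authors deposited raw counts of reads for each Ensembl gene, made with UMI-tools 1.0.0, cutadapt 1.18 and HTSeq 0.11.2 on mm10, per the submitters' processing notes, which also name DESeq2 1.26.0. Aligner, annotation release and strand setting were not given in the sources used here, so reads of overlapping antisense genes cannot be told apart. Summary lines that name no gene, 49.8% to 54.4% of reads in the RA libraries, were left out. Symbols and mm10 coordinates are from GENCODE M21 (49412 of 49671 genes matched), and sequences from RefSeq.

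Counts of all 17 libraries were fitted in edgeR 4.0.16 (R 4.3.3) as 6 groups, with filterByExpr (minimum count 10, minimum total 15), TMM scaling and robust quasi-likelihood tests on 11 residual degrees of freedom (common biological coefficient of variation 0.632). P-values were adjusted over 17813 genes by Benjamini-Hochberg, and every adjusted p is from this test unless DESeq2 1.42.0 is named. An SE is the estimated log2 change over the square root of its F statistic and is approximate at low counts. On simulated counts with 3 libraries a group, 19 of 97 genes changed 2-fold and 46 of 92 changed 4-fold were called.

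Same-numbered RA libraries correlated at 0.587, 0.238 and 0.277 in their deviations from group means over 6669 genes, each over the limit of 0.1. Same numbers were therefore paired in the naming rule, the values per pair and the replicate block, but not in the main fit. FOXA2-positive library 2 with FOXA2-negative library 3 (0.243) and FOXA2-positive library 3 with FOXA2-negative library 2 (0.168) also passed that limit. The correlations thus set apart the pair numbered 1 but cannot tell how libraries 2 and 3 pair, which rests on their numbers. Genes could be named that were called, had a mean of at least 5 CPM and no overlap, and moved one way in the 3 pairs: the 15 largest fold changes and the 10 most abundant in each direction, without predicted genes, besides members of the gene lists. The comparison, its lists and its tests were chosen with earlier results of these data known. Some genes named with values though not called are list members. Alternatives were DESeq2, RLE scaling, other filters, the RA libraries alone, the replicate block, each RA library left out, both libraries numbered 1 left out, and genes of chromosomes 6, 8 and Y or mitochondrial genes left out. Results on a few genes are not reported here.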

Additional observations from a re-analysis of the deposited data

Results flagged for a closer look

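The difference between fractions of Gm17251 differed between treatments by a test of the difference itself. After RA it stood apart from that after BMP4 by -4.04 on the log2 scale (SE 0.54, edgeR adjusted p = 0.00133) and from that after LDN by -4.87 (SE 0.57, edgeR adjusted p = 0.000102). In RA the FOXA2-positive libraries had 5.2, 6.1 and 6.04 CPM and the FOXA2-negative libraries 102, 170.2 and 226 CPM. RA libraries may also have been collected at another time, which cannot be told apart from treatment.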

How the results depend on the processing

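Of 212 calls in RA, DESeq2 gave 456, no filter on low counts 466, the 6 RA libraries alone 127, the replicate block within treatment 362, and both libraries numbered 1 left out 109. With the 6 RA libraries alone, 208 of the 212 genes were tested and 102 of them stayed called. That fit had its own spread, scaling and filter, and its p-values were adjusted over 14242 genes. The part of each in the lost calls was not tested. Leaving out each RA library in turn gave 105 to 219. RLE scaling (213), a filter of 5 CPM in 2 libraries (245) and the replicate block on the 6 RA libraries alone (314) stayed within 1.5 times. The interaction with BMP4 held 1 gene, and 5 with DESeq2, 31 with no filter, 2 with the replicate block and 1 to 2 with an RA library left out. The interaction with LDN held 1, 6 with DESeq2 and 31 with no filter. Gm17251 was called in both interactions under each of these settings. The log2 fold change of Sox2, which was not called, turned to -0.048 without FOXA2-negative library 2 and to -0.059 without FOXA2-positive library 1, over a range of -0.059 to 0.31 with each RA library left out. Of the 175 genes whose values were recomputed, a part of those named or called, no other changed its direction where a setting gave it a value. With no filter on low counts 5 list medians moved by more than the SD of the 3 pair medians, and the number of calls moved by over 1.5 times in 19 of 38 lists. With the filter of 5 CPM the numbers were 7 and 2. The median of the RA list, 0.24, was 0.06 with no filter and 0.39 without both libraries numbered 1, and its calls went from 1 to 6 with no filter or DESeq2. That of the Nodal list, -0.27, was -0.44 without those libraries and -0.13 with the replicate block, and that of the primed list, -0.18, was -0.53 and -0.32. The median of the primitive streak list, 0.21, was 0.13 and 0.084, and that of the Eph list, 0.35, was 0.22 with no filter. With the replicate block the calls that changed among the named genes are given in the report. The causes were not tested. With 3 libraries a group, changes of 2-fold were mostly missed in the simulated counts, so a gene that was not called may still differ.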

Other observations

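Some called genes lie outside the naming rule and were chosen after their values were seen. Gm26870 (chr9:3000282-3038313, minus strand, mm10), a long intergenic non-coding RNA gene, had 4.2, 5.07 and 10.4 CPM in FOXA2-positive and 124, 235 and 66.4 CPM in FOXA2-negative libraries (-4.43 ± 0.78, SE, edgeR adjusted p = 0.0155). A330032B11Rik, an antisense gene on chromosome 19, had 16.5, 28.6 and 0.102 CPM against 0 counts in the 3 FOXA2-negative libraries, and nearly all of its counts came from FOXA2-positive libraries 1 and 2. It was the 1 gene called higher with 0 counts in the FOXA2-negative fraction. In the other direction 17 called genes had 0 counts in the 3 FOXA2-positive libraries, of which 13 are predicted or unnamed, 6 lie on chromosome 12 and 5 on chromosome 7, where the Zscan4 genes are. Of all tested genes 735 had 0 counts in those libraries.

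Among mitochondrial genes with counts, the higher share of the libraries numbered 1 lay mainly in ribosomal RNA. The 2 mitochondrial ribosomal RNAs took 5.63% and 4.91% of counts in the FOXA2-positive and FOXA2-negative library numbered 1, against 2.83% to 2.98% in the other 4. The mitochondrial protein-coding genes took 1.67% and 1.68%, against 1.40% to 1.61%. Of these 13 genes 6, mt-Co2 and mt-Co3 among them, had 0 counts in all 6 libraries, so their share is of the remaining genes only. The cause of these zeros was not tested.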
